A study of Homo sapiens with 12 samples.

Results

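The genes described here are 40 neighbours on the long arm of human chromosome 6, in bands 6q16 to q21, running from USP45 to TRAF3IP2. They were chosen by the FPKM difference between degron (++) and degron (−) PANC-1 cells in the unirradiated libraries, where their transcripts were mostly lower in degron (++) cells, so the difference at 0 Gy is given below as a description and only the irradiated libraries, which that choice did not use, were tested. Of the 40 genes, among 23284 gene symbols listed, 37 had at least 1 FPKM (fragments per kilobase of exon, scaled to the mapped reads of the library) in at least 2 libraries and were kept, among 12946 genes kept in all. SCML4, PPIL6 and SLC16A10 did not reach this level.

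PANC-1 is an established human pancreatic carcinoma cell line, here carrying a retroviral reporter in which the fluorescent protein ZsGreen is fused to the degron of ornithine decarboxylase (ODC), so that green cells are those with low proteasome activity. The infected line as a whole, in which few cells were green, is the degron (−) population, and degron (++) cells were obtained from it by repeated sorting and culture followed by selection of the brightest cells. All cells carried the reporter and were grown under G418, and RNA was sequenced from 12 libraries, 2 in each of 6 groups. Each population was taken unirradiated at 48 h, 30 h with 4 Gy, and 48 h with 4 Gy. The starting point of the hours is not stated in the labels, which give the 6 degron (−) libraries as ZsGreen– in the titles and as d+ in the descriptions, and which do not say that replicates were separate cultures, so p-values measure only the spread between these samples, which may be technical. Because degron (++) cells descend from repeatedly sorted cells of the infected line, the reporter state and the history of sorting and growth cannot be told apart. In bulk RNA, fewer cells expressing a gene and less RNA per cell cannot be told apart either.

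The cells had the markers of an epithelial line. KRT8, KRT18 and KRT19, keratins of simple epithelium, summed to 5797.6 to 6768.7 FPKM in the degron (++) libraries and 4056.8 to 4798.7 FPKM in the degron (−) libraries. Endothelial markers (PECAM1, CDH5) summed to at most 0.556 FPKM and fibroblast markers (COL1A2, PDGFRB, DCN) to at most 0.155 FPKM. The populations differed widely elsewhere too: CDKN2A, a cell cycle inhibitor of chromosome 9, was at 100 to 112 FPKM in degron (++) and 11 to 21.1 FPKM in degron (−) libraries, and GSTT1, a glutathione transferase, was listed at 0 in all 6 degron (++) libraries and at 31.5 to 36.1 FPKM in the degron (−) libraries.

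Neighbouring genes of a chromosome are transcribed from their own promoters, so their transcripts usually vary separately. When a length of chromosome is lost or gained in a tumour cell, the transcripts of its genes often shift together, and parts of the long arm of chromosome 6 are among the regions repeatedly lost in human cancers. The stretch holds genes of unlike function: regulators of transcription (CCNC, CDK19, PRDM1, FOXO3), autophagy and lysosome genes (ATG5, OSTM1, FIG4), mitochondrial proteins (QRSL1, PDSS2, RTN4IP1), a secretory pathway component (SEC63) and the catalytic subunit of a DNA polymerase that copies past damage (REV3L). DNA copy number was not measured in these libraries, and its part in the differences was not tested.

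The promoters shown are those of the 2 kept genes with the largest fall in degron (++) cells and of the 2 with the smallest change, among kept genes with a mean of at least 5 FPKM and an entry in the RefSeq promoter table (assembly GRCh38.p14). Where the table gives several starts for a gene, the most upstream was used. Each runs 5′ to 3′ over the 250 bases before the annotated start, with capitals marking matches on either strand to the SP1-type box GGGCGG, the CCAAT box (CCAAT), the TATA box TATAAA, the ETS-type site ACTTCCG or the palindrome of NRF1. The first is POPDC3 (chr6:105180015-105180264, minus strand), the next OSTM1 (chr6:108074742-108074991, minus strand), then CDC40 (chr6:110180177-110180426, plus strand) and CCNC (chr6:99568815-99569064, minus strand).
POPDC3: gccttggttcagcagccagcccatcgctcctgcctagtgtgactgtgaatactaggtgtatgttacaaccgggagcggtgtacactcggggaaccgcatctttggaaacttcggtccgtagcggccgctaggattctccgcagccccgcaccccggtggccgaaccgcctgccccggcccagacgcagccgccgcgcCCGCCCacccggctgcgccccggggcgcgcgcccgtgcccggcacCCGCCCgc
OSTM1: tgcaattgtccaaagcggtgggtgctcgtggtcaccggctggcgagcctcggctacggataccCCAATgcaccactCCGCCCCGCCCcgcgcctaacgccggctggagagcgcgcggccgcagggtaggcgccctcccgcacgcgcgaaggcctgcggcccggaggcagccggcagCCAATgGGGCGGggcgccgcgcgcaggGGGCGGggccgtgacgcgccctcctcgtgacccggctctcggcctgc
CDC40: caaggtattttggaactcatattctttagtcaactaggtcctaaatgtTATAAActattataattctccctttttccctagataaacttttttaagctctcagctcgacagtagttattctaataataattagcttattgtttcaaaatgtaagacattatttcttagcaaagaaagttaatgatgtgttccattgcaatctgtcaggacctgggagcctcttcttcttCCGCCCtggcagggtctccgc
CCNC: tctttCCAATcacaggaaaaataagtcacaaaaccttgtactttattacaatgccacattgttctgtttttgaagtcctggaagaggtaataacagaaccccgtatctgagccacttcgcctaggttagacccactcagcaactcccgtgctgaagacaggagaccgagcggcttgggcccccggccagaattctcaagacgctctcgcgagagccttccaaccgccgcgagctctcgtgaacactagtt

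The promoters of the genes with the largest falls were rich in G and C, 70.8% for POPDC3 and 76.4% for OSTM1, whereas CCNC was at 50.4% and CDC40 at 36.0%. CDC40 itself differed by -0.67 at 0 Gy on the log2(FPKM + 1) scale. FOXO3, ASCC3, PREP, BEND3 and C6orf203 differed less but fell outside the limits of level or promoter entry. POPDC3 held 2 matches to GGGCGG, and OSTM1 held 4 together with 2 matches to CCAAT, while CDC40 held 1 GGGCGG and 1 TATAAA and CCNC held 1 CCAAT. Among the 33 kept genes of the block with an entry, 25 (75.8%) held GGGCGG, against 42.5% of 34943 promoters of the same length, whose genes need not be expressed in these cells. CCAAT was present in 9 (27.3%, against 32.0%), TATAAA in 3 (9.09%, against 10.8%), the NRF1 palindrome in 1 (3.03%, against 1.02%) and ACTTCCG in 0 (against 5.65%). A match is a description of the letters only.

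Most genes of the block were lower in degron (++) cells in each condition. At 0 Gy and 48 h, where the block was found, both degron (++) libraries lay below both degron (−) libraries in 35 of the 37 kept genes, ASCC3 overlapped and FOXO3 lay above, while 45.4% of all genes tested lay below. The median difference was -1.04 on the log2(FPKM + 1) scale, against -0.02 over all genes. The question for the irradiated libraries was whether this pattern was met again in RNA that had no part in the choice of the genes, although the 2 populations are the same.

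In the irradiated libraries the pattern was met again. At 4 Gy and 30 h, 36 of 37 kept genes were lower in degron (++) cells (limma, adjusted p under 0.05 over all genes), where 40.8% of all genes tested were lower and 38.3% higher. At 4 Gy and 48 h, 35 of 37 were lower by the same test, where 39.6% were lower and 37.1% higher. The median differences of the 37 genes were -1.17 and -0.98 on the log2(FPKM + 1) scale, with medians over all genes of -0.021 and -0.0091. In both irradiated comparisons 35 genes passed as lower, against 37.3% of all genes, and the 2 others were ASCC3 and FOXO3. Within single conditions both degron (++) libraries lay below both degron (−) libraries in 36 genes in the 30 h libraries with 4 Gy, against 45.8% of all genes, and in 36 in those at 48 h, against 44.6%.

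Not all kept genes carry the same weight in these counts. LIN28B, BVES, POPDC3, PRDM1, SOBP, LACE1 and ARMC2 reached 1 FPKM in no degron (++) library, so these 7 were kept only through the population in which they were higher and had to differ, and their own differences are given below without a test. Over the other 30 genes, 29 were lower in the 4 Gy libraries at 30 h and 28 in those at 48 h, with medians of -1.10 and -0.94 on the log2(FPKM + 1) scale. Just inside the limit lay PRDM1, at 0.830 to 1.08 FPKM in degron (−) libraries, and just outside it lay PPIL6, a peptidyl-prolyl isomerase relative, at 0.112 to 0.273 FPKM there. When each library was instead scaled to the same sum of FPKM, the median of all genes moved to -0.27 at 30 h and -0.25 at 48 h, 51.9% and 50.6% of all genes were called lower, and the medians of the block moved to -1.45 and -1.24, which is -1.18 and -0.99 relative to all genes.

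**Figure D1:**
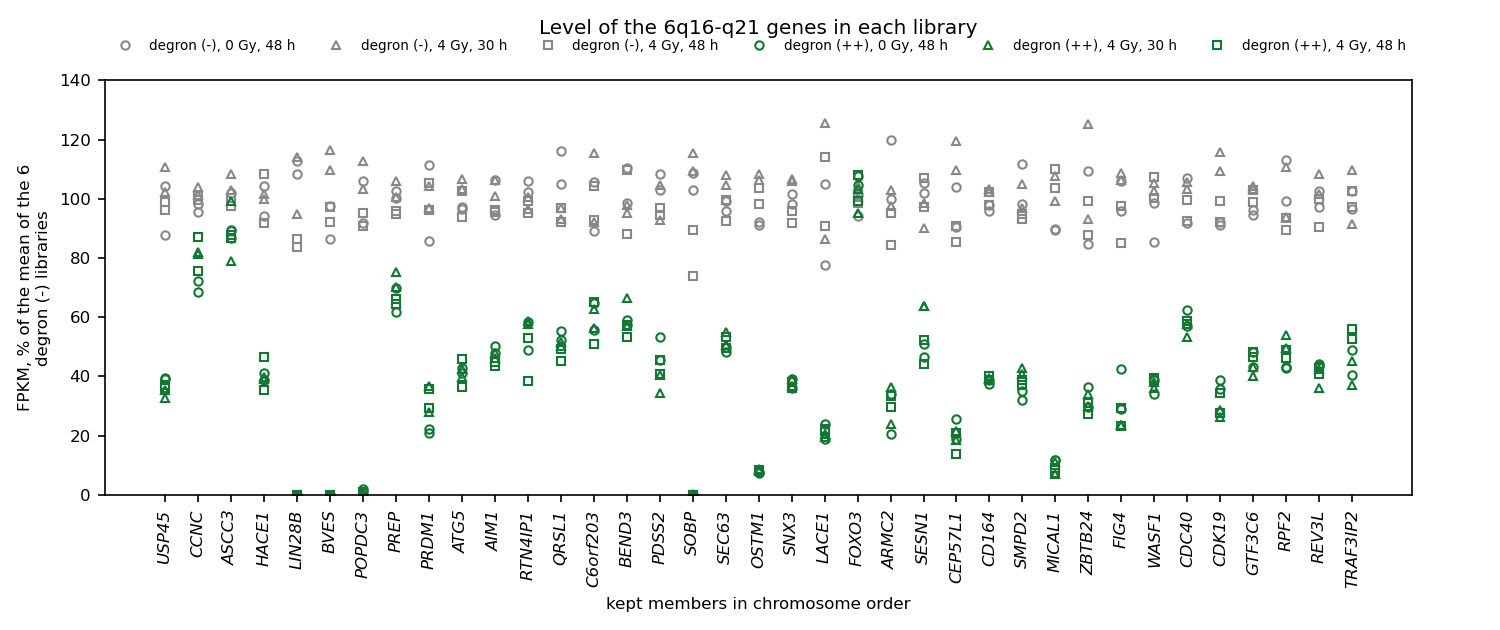
FPKM of each of the 37 kept genes in each of the 12 libraries, as a percent of that gene's mean over the 6 degron (−) libraries (grey), in chromosome order; green symbols are degron (++) libraries and symbol shapes are conditions. The degron (++) symbols lie below the degron (−) symbols for 35 genes, against 37.2% of all genes tested, a count that includes the unirradiated libraries used in the choice, and lie at or near 0 for LIN28B, BVES, POPDC3 and SOBP. They overlap the grey symbols for ASCC3 and FOXO3.

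The fall was of similar size in each degron (++) library. Taking each gene relative to its degron (−) mean, the median over the kept genes was 38.7% to 42.5% in the 6 degron (++) libraries and 95.6% to 106% in the 6 degron (−) libraries. The other measures that moved with the populations were the sum of FPKM, 829654 to 916877 for degron (++) against 707273 to 763064 for degron (−) cells, and the share of that sum listed for MIR622, 28.6% to 30.0% and 22.5% to 27.1%. Their part in the result was not tested.

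Values below are listed for the libraries in the order 0 Gy at 48 h, 4 Gy at 30 h and 4 Gy at 48 h, with 2 libraries in each, and differences are degron (++) minus degron (−) on the log2(FPKM + 1) scale with the standard error of the limma fit.

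POPDC3 had the most negative difference of the block in each condition. BVES and POPDC3, neighbours that encode Popeye domain proteins binding cyclic AMP at the plasma membrane of muscle and epithelial cells, were close to silent in degron (++) cells. POPDC3 measured 0.357, 0.15, 0.082, 0.154, 0.15 and 0.14 FPKM in the degron (++) libraries, against 16.4, 18.9, 20.1, 18.4, 17.0 and 16.2 FPKM in the degron (−) libraries. Every degron (++) library was far below every degron (−) library, and the ratio of the population means was 0.966%. The difference was -4.18 ± 0.0989 in the 4 Gy libraries at 30 h and -3.94 ± 0.0989 in those at 48 h. BVES measured 0, 0, 0, 0, 0 and 0 FPKM in the degron (++) libraries, against 6.44, 5.69, 7.24, 7.68, 6.08 and 6.41 FPKM in the degron (−) libraries. BVES was thus listed at 0 in each degron (++) library, and 1.13% of all genes tested were listed at 0 in all 6. Its difference was -3.08 ± 0.0745 in the 4 Gy libraries at 30 h and -2.86 ± 0.0745 in those at 48 h.

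OSTM1, the partner subunit of the lysosomal chloride transporter CLCN7, was well expressed in degron (−) cells and low, but measured, in degron (++) cells. OSTM1 measured 2.75, 2.58, 3.06, 3.02, 2.93 and 3.03 FPKM in the degron (++) libraries, against 32.3, 32.7, 37.8, 38.5, 36.8 and 34.9 FPKM in the degron (−) libraries. The lowest degron (−) library was more than 10 times the highest degron (++) library, and the ratio of the means was 8.16%. The difference was -3.28 ± 0.0468 (limma, adjusted p = 8.16e-11) at 4 Gy and 30 h and -3.21 ± 0.0468 (adjusted p = 1.02e-10) at 4 Gy and 48 h. MICAL1, a monooxygenase that oxidises actin filaments, was also low in degron (++) cells. MICAL1 measured 1.89, 1.86, 1.15, 1.76, 1.19 and 1.45 FPKM in the degron (++) libraries, against 14.2, 14.3, 17.1, 15.8, 17.5 and 16.5 FPKM in the degron (−) libraries. The groups did not overlap, the ratio of the means was 9.74%, and the difference was -2.84 ± 0.111 (limma, adjusted p = 2.53e-08) at 4 Gy and 30 h and -2.96 ± 0.111 (adjusted p = 2.87e-08) at 4 Gy and 48 h.

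SOBP, a nuclear zinc finger protein, and LIN28B, an RNA-binding protein that blocks the maturation of let-7 microRNAs, were expressed at low levels in degron (−) cells. SOBP measured 0, 0, 0, 0.014, 0 and 0 FPKM in the degron (++) libraries, against 4.71, 4.96, 5.27, 5.0, 4.08 and 3.38 FPKM in the degron (−) libraries. SOBP was listed above 0 in 1 of 6 degron (++) libraries. Its difference was -2.61 ± 0.0839 in the 4 Gy libraries at 30 h and -2.24 ± 0.0839 in those at 48 h. LIN28B measured 0, 0, 0, 0, 0 and 0 FPKM in the degron (++) libraries, against 2.17, 2.26, 2.29, 1.9, 1.73 and 1.68 FPKM in the degron (−) libraries. LIN28B was listed at 0 in all degron (++) libraries, and its difference was -1.63 ± 0.0819 in the 4 Gy libraries at 30 h and -1.43 ± 0.0819 in those at 48 h. For genes listed at 0 the difference depends on the constant added before the logarithm and is not a bound.

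Of the transcription regulators, the kinase and cyclin of the Mediator kinase module fell to unlike extents. CCNC encodes cyclin C, which activates CDK8 and its paralog CDK19. CCNC measured 25.4, 24.1, 28.8, 28.6, 30.6 and 26.6 FPKM in the degron (++) libraries, against 33.6, 34.5, 35.6, 36.5, 35.5 and 35.0 FPKM in the degron (−) libraries. Each degron (++) library lay below each degron (−) library, by a small margin, with a ratio of means of 77.9%. The difference was -0.32 ± 0.0594 (limma, adjusted p = 0.000906) at 4 Gy and 30 h and -0.30 ± 0.0594 (adjusted p = 0.00149) at 4 Gy and 48 h. CDK19 measured 3.75, 3.48, 2.54, 2.78, 3.33 and 2.67 FPKM in the degron (++) libraries, against 8.93, 8.84, 11.2, 10.6, 9.62 and 8.92 FPKM in the degron (−) libraries. CDK19 in degron (++) cells was at 31.9% of its degron (−) level, again without overlap. Its difference was -1.70 ± 0.0855 (limma, adjusted p = 1.21e-07) at 4 Gy and 30 h and -1.37 ± 0.0855 (adjusted p = 6.61e-07) at 4 Gy and 48 h, and its interval lay below that of CCNC in both conditions.

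FOXO3, a forkhead factor that responds to insulin and stress signalling, was the exception of the block. FOXO3 measured 4.1, 4.21, 4.04, 3.73, 4.23 and 3.88 FPKM in the degron (++) libraries, against 3.68, 3.96, 3.93, 4.08, 3.97 and 3.85 FPKM in the degron (−) libraries. The 6 and 6 libraries overlapped, and the ratio of means was 103%. The difference was -0.035 ± 0.0655 (limma, adjusted p = 0.635) at 4 Gy and 30 h and 0.041 ± 0.0655 (adjusted p = 0.589) at 4 Gy and 48 h, with 95% intervals of -0.18 to 0.11 and -0.11 to 0.19, and its sign turned with the scaling, to 0.12 at 30 h after quantile normalization and to -0.18 at 48 h after scaling to equal sums. It passed the threshold as lower at 30 h after scaling to equal sums (limma, adjusted p = 0.0138) and as higher at 48 h after quantile normalization (limma, adjusted p = 0.018). Its value is uncertain because reads can be shared with the near-identical copy FOXO3B on chromosome 17, which was at 0.396 to 0.533 FPKM in degron (++) and 1.03 to 1.20 FPKM in degron (−) libraries.

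PRDM1 encodes BLIMP1, a repressor that drives plasma cell differentiation, and BEND3 encodes a repressor found at heterochromatin. PRDM1 measured 0.204, 0.215, 0.272, 0.356, 0.347 and 0.284 FPKM in the degron (++) libraries, against 0.83, 1.08, 0.939, 1.01, 0.931 and 1.02 FPKM in the degron (−) libraries. PRDM1 did not overlap between populations, and its difference was -0.59 ± 0.0897 in the 4 Gy libraries at 30 h and -0.59 ± 0.0897 in those at 48 h. The PRDM1 difference depended on the scaling, and after quantile normalization it was -0.11 at 30 h and -0.044 at 48 h. BEND3 measured 1.95, 2.01, 2.27, 1.94, 1.82 and 1.96 FPKM in the degron (++) libraries, against 3.76, 3.36, 3.24, 3.34, 3.74 and 3.0 FPKM in the degron (−) libraries. BEND3 did not overlap between populations, and its difference was -0.47 ± 0.0961 (limma, adjusted p = 0.00161) at 4 Gy and 30 h and -0.59 ± 0.0961 (adjusted p = 0.000409) at 4 Gy and 48 h. ZBTB24, a zinc finger regulator of DNA methylation mutated in an immunodeficiency syndrome, was at 31.4% of its degron (−) mean, with differences of -1.36, -1.55 and -1.46 in the 3 conditions.

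ATG5 is joined to ATG12 to form the conjugate that lipidates LC3 on growing autophagosomes. ATG5 measured 8.75, 9.12, 9.05, 8.45, 9.73 and 7.75 FPKM in the degron (++) libraries, against 20.6, 20.5, 22.6, 21.9, 19.9 and 21.8 FPKM in the degron (−) libraries. Every degron (++) value was below 10 FPKM and every degron (−) value at 19.9 FPKM or above, and the difference was -1.25 ± 0.089 (limma, adjusted p = 1.24e-06) at 4 Gy and 30 h and -1.17 ± 0.089 (adjusted p = 2.42e-06) at 4 Gy and 48 h. HACE1 is a ubiquitin ligase that marks active RAC1 for degradation. HACE1 measured 1.58, 1.49, 1.5, 1.52, 1.78 and 1.36 FPKM in the degron (++) libraries, against 3.99, 3.6, 3.83, 3.89, 3.51 and 4.15 FPKM in the degron (−) libraries. HACE1 did not overlap, and its difference was -0.95 ± 0.0976 (limma, adjusted p = 1.59e-05) at 4 Gy and 30 h and -0.91 ± 0.0976 (adjusted p = 2.49e-05) at 4 Gy and 48 h.

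SEC63 carries the lumenal J domain that works with the SEC61 channel in protein import into the endoplasmic reticulum. SEC63 measured 10.3, 10.7, 10.8, 11.8, 11.4 and 10.6 FPKM in the degron (++) libraries, against 20.5, 21.2, 23.1, 22.4, 21.3 and 19.8 FPKM in the degron (−) libraries. The ratio of means was 51.2% and the difference was -0.95 ± 0.0579 (limma, adjusted p = 4.43e-07) at 4 Gy and 30 h and -0.84 ± 0.0579 (adjusted p = 1.24e-06) at 4 Gy and 48 h. SNX3, a sorting nexin that recruits retromer to endosomes, and CD164, a sialomucin of the cell surface and endosomes, had the highest levels of the block. SNX3 was at 63.8 to 69.5 FPKM in degron (++) and 163 to 189 FPKM in degron (−) libraries. CD164 was at 50.7 to 54.3 and 130 to 140 FPKM. Their differences over the 3 conditions were -1.40, -1.47 and -1.33 for SNX3 and -1.33, -1.37 and -1.33 for CD164. FIG4, a phosphatase of endosomal phosphoinositides, was at 28.6% of its degron (−) mean. SMPD2, a neutral sphingomyelinase, was at 37.8%.

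REV3L is the catalytic subunit of DNA polymerase zeta, which extends synthesis past lesions. REV3L measured 3.53, 3.47, 2.88, 3.4, 3.43 and 3.27 FPKM in the degron (++) libraries, against 7.76, 8.2, 8.64, 8.1, 7.98 and 7.22 FPKM in the degron (−) libraries. The populations did not overlap, and the difference was -1.18 ± 0.0771 (limma, adjusted p = 7.05e-07) at 4 Gy and 30 h and -0.98 ± 0.0771 (adjusted p = 3.03e-06) at 4 Gy and 48 h. SESN1 is a sestrin induced by p53 that restrains mTORC1. SESN1 measured 1.74, 1.59, 2.18, 2.18, 1.79 and 1.51 FPKM in the degron (++) libraries, against 3.49, 3.6, 3.08, 3.37, 3.33 and 3.66 FPKM in the degron (−) libraries. Its highest degron (++) values were those at 30 h, still below every degron (−) library. The difference was -0.41 ± 0.0785 (limma, adjusted p = 0.00106) at 4 Gy and 30 h and -0.76 ± 0.0785 (adjusted p = 1.85e-05) at 4 Gy and 48 h. USP45, a deubiquitinase that acts on the repair nuclease subunit ERCC1, was at 36.6% of its degron (−) mean, with differences of -0.84, -1.06 and -0.91.

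ASCC3, a helicase that works in alkylation repair and in the release of collided ribosomes, and PREP, a cytosolic prolyl oligopeptidase, were among the genes that differed least. ASCC3 measured 9.93, 9.62, 8.76, 11, 9.73 and 9.6 FPKM in the degron (++) libraries, against 9.89, 11.3, 11.4, 12, 11.1 and 10.8 FPKM in the degron (−) libraries. Degron (++) libraries at 9.93 and 11 FPKM lay within the degron (−) range of 9.89 to 12 FPKM, and the ratio of means was 88.2%. The difference was -0.23 ± 0.0942 (limma, adjusted p = 0.0496) at 4 Gy and 30 h and -0.16 ± 0.0942 (adjusted p = 0.14) at 4 Gy and 48 h. The call at 30 h was lost in 14 of 20 alternatives (limma, adjusted p from 0.00296 to 0.388), among them the removal of any single library except replicate 2 of degron (++) at 4 Gy and 30 h and the unirradiated degron (−) libraries. PREP measured 16.1, 18.2, 19.6, 18.3, 17.2 and 16.8 FPKM in the degron (++) libraries, against 26.1, 26.7, 26.2, 27.6, 25 and 24.7 FPKM in the degron (−) libraries. PREP did not overlap, with a ratio of means of 68.0%, and its difference was -0.48 ± 0.0595 (limma, adjusted p = 5.83e-05) at 4 Gy and 30 h and -0.52 ± 0.0595 (adjusted p = 3.87e-05) at 4 Gy and 48 h.

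Of the remaining kept genes, LACE1 and ARMC2 are given without a test. The others were all lower in both irradiated comparisons (limma), against 37.3% of all genes. Among the mitochondrial proteins, QRSL1, a subunit of the amidotransferase that makes glutaminyl-tRNA, was at 50.6% of its degron (−) mean. RTN4IP1, a mitochondrial oxidoreductase, was at 52.6%, and C6orf203, a mitochondrial RNA-binding protein, at 59.3%. PDSS2, which helps make the side chain of coenzyme Q, was at 43.4%, and LACE1, a mitochondrial ATPase, at 21.1%. Of the genes acting on RNA and ribosomes, CDC40, a splicing factor, was at 57.9%, RPF2, which helps load the 5S particle into the large ribosomal subunit, at 47.5%, and GTF3C6, a subunit of the RNA polymerase III factor TFIIIC, at 44.9%. WASF1, which activates the Arp2/3 complex in lamellipodia, was at 37.6%, CEP57L1, a centrosomal protein, at 19.9%, and ARMC2, a protein needed for sperm flagella, at 29.8%. AIM1, a crystallin-fold protein that binds actin, was at 46.8%, as was TRAF3IP2, the adaptor of interleukin-17 receptors. Of the 3 genes that were not kept, SCML4 was listed at 0 in all libraries but 1, SLC16A10, a transporter of aromatic amino acids, was at 0.072 FPKM or below, and PPIL6 was at 0.043 FPKM or below in degron (++) cells.

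**Figure D2:**
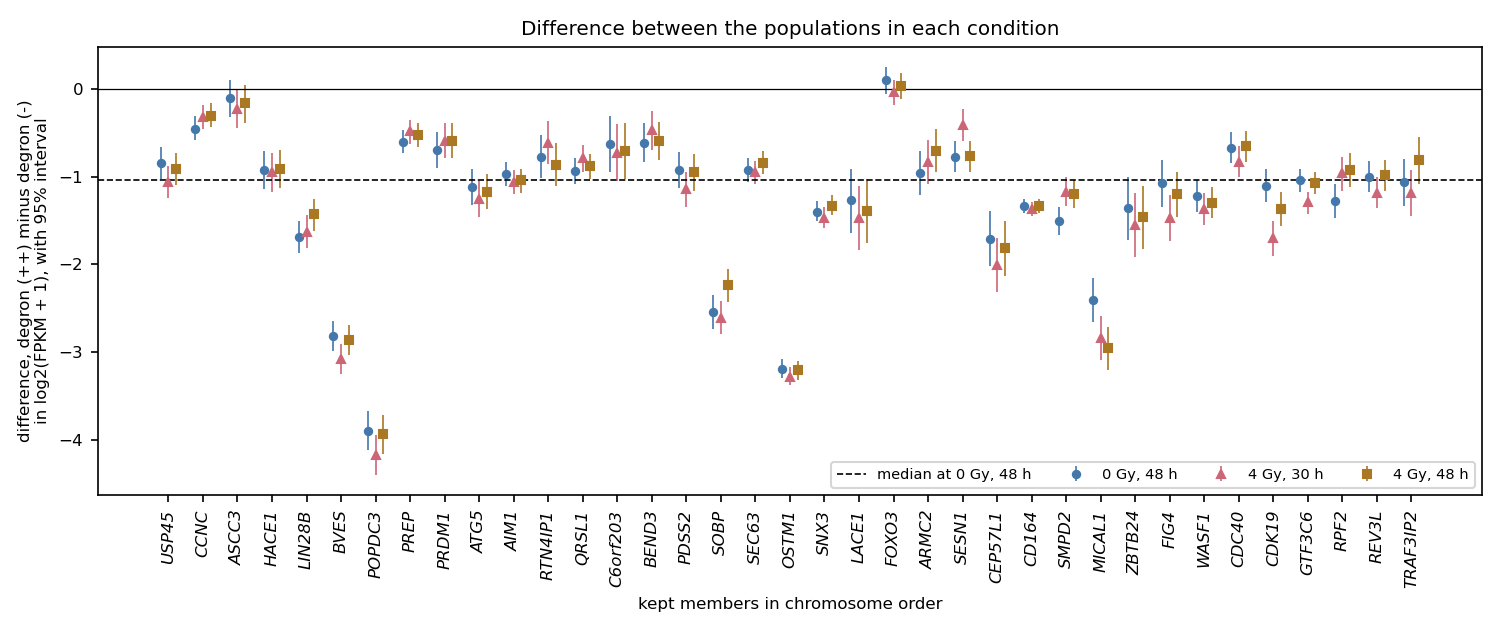
Difference in log2(FPKM + 1), degron (++) minus degron (−), for the 37 kept genes in chromosome order, with the 95% interval of the limma fit over 2 libraries a group; colours and shapes are the 3 conditions and the dashed line is the median at 0 Gy and 48 h, -1.04. The 3 conditions give each gene a similar value, while the genes spread from FOXO3 near 0 to POPDC3 near -4.

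The design asks whether a single step in expression describes all the genes. The step was set as the median difference at 0 Gy and 48 h, -1.04, and compared with the 95% intervals in the irradiated libraries, whose median half-width was 0.191. At 4 Gy and 30 h the interval held the step in 11 of 37 genes, lay above it in 10 and below it in 16, and 8.70% of all genes tested had an interval that held it. At 4 Gy and 48 h the interval held the step in 13 genes, lay above it in 12 and below it in 12, against 8.37% of all genes. Without the 7 genes kept only through degron (−) cells, the step was held in 10, with 9 above and 11 below, of 30 genes at 30 h, and in 12, with 10 above and 8 below, at 48 h. One step was thus inside the interval of a minority of the genes. CCNC, ASCC3, PREP, QRSL1, BEND3, FOXO3, SESN1 and CDC40 lay above it in both irradiated comparisons. PRDM1 is counted above it too, but its place there follows from its low level. With a degron (−) mean of 0.969 FPKM, its difference could not reach -1.04 on this scale even at 0 FPKM in degron (++) cells. Its ratio of means was 28.9%. LIN28B, BVES, POPDC3, SOBP, OSTM1, SNX3, CEP57L1, CD164, MICAL1, ZBTB24, WASF1 and CDK19 lay below it in both.

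The genes were less spread than genes in general, and their spread was larger than the half-width of their intervals. The interquartile range of the differences was 0.686 at 30 h and 0.602 at 48 h for the block, against 1.08 and 0.957 for all genes, on the log2(FPKM + 1) scale, and over the 30 genes not kept through degron (−) cells alone it was 0.632 and 0.496. The spread among genes was repeatable. The differences of the 37 genes in one condition tracked those in another with Pearson's r of 0.974 to 0.986 across genes, with no library shared between conditions. All 12946 genes gave 0.878 to 0.891. The r of the block includes the 7 genes kept only through degron (−) cells, among them POPDC3, BVES and SOBP with large differences. It was not computed without them. The genes were chosen for mostly lower values in these populations, which by itself can narrow their spread beside that of all genes. Genes are not independent replicates, and the libraries come from the same 2 populations, so these values are a description.

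Since a step in log2(FPKM + 1) is not a fixed ratio for weak genes, the ratio of the population means was also taken on the linear scale for the 34 genes above 0 in all libraries. The median ratio was 42.1% in the unirradiated libraries, 39.3% in the 4 Gy libraries at 30 h and 43.0% in those at 48 h. Over all conditions it was 41.6%, with an interquartile range of 31.5% to 52.2%. Within 1.25-fold of that median lay 15 of 34 genes, 9 lay above and 10 below. Taken by condition, around the median of each, it was 19 in the unirradiated libraries, 13 in the 4 Gy libraries at 30 h and 17 in those at 48 h. The ratio fell between 25% and 50% in 18 genes, under 25% in 5 (POPDC3, OSTM1, LACE1, CEP57L1 and MICAL1) and over 50% in 11, of which CCNC, ASCC3, PREP and FOXO3 were highest. Over the same 30 genes as before the median was 44.2%, and 19 were under 50%. A ratio under 50% was found in 17.5% of all genes tested.

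Lower genes were found along the whole block. Split by order, the 8 kept genes from USP45 to PREP had medians of -1.0 and -0.91 at 30 h and 48 h with 4 Gy. The 12 from PRDM1 to SNX3 had -1.01 and -0.92, and the 17 from LACE1 to TRAF3IP2 had -1.29 and -1.20. These medians include the 7 genes kept only through degron (−) cells, among them LIN28B, BVES and POPDC3 in the first run, and were not computed without them. The other genes of the first run had -1.06 (USP45), -0.32 (CCNC), -0.23 (ASCC3), -0.95 (HACE1) and -0.48 (PREP) at 30 h. Each run mixed large and small falls: POPDC3 lies next to PREP, and OSTM1 is in the same run as BEND3. Neighbours that share a start region could differ as well. Of 4 such pairs, which start within 1000 bases of each other on opposite strands and were picked after their values were seen, RTN4IP1 and QRSL1 had like ratios, 52.6% and 50.6%. SESN1 and CEP57L1 had 53.5% and 19.9%, and WASF1 and CDC40 had 37.6% and 57.9%, with intervals that did not overlap in any condition. REV3L and the antisense transcript TRAF3IP2-AS1 had 41.7% and 20.7%, with intervals that overlapped in each condition. The library kit keeps strand, but how the counting used strand is not given in the sources used here, so overlapping transcripts are uncertain.

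Of 18 gene symbols inside the same bounds that are not among the 40, 5 were kept, and 4 of these 5 were lower in both irradiated comparisons (limma), against 37.3% of all genes. CD24, a surface glycoprotein used as a marker of stem-like carcinoma cells, was at 52.3 to 69.1 FPKM in degron (++) and 161 to 172 FPKM in degron (−) libraries, a ratio of 35.3%, and is uncertain because it has near-identical copies elsewhere. AMD1, which makes decarboxylated S-adenosylmethionine for polyamine synthesis, was at 69.0%, the KIAA1919 transcript at 51.5% and TRAF3IP2-AS1 at 20.7%. GSTM2P1, a pseudogene of chromosome 6, was at 94.9% and did not pass.

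Lower values went on before USP45, while after TRAF3IP2 lower and higher genes were mixed. The 10 kept genes before USP45 were all negative, 9 of them lower at 30 h and 8 at 48 h (limma), against 40.8% and 39.6% of all genes, with medians of -0.68 and -0.58. MANEA, a Golgi mannosidase, was at 29.2%, and FBXL4, a mitochondrial F-box protein, at 45.9%, while COQ3, a coenzyme Q methyltransferase, was at 86.1% and passed in neither. FYN, a SRC-family kinase and the next kept gene after TRAF3IP2, was at 11.8 to 14.8 FPKM in degron (++) and 2.49 to 4.41 FPKM in degron (−) libraries. MARCKS, an actin-binding substrate of protein kinase C, was at 28.4 to 33.3 and 6.97 to 9.94 FPKM, and HDAC2, a histone deacetylase, fell from 32.7 to 37.9 FPKM in degron (−) to 17.8 to 19.2 FPKM in degron (++) libraries. Of the 10 kept genes after TRAF3IP2, 5 were lower and 5 higher at 30 h, beside 40.8% and 38.3% of all genes, and 5 lower and 4 higher at 48 h, beside 39.6% and 37.1%. Their medians were -0.059 and -0.24. WISP3 and C6orf225 reached 1 FPKM only in degron (−) libraries, and FRK and TPI1P3 only in degron (++) libraries. These genes were thus kept only through the population in which they were higher.

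Chromosome 6 as a whole was shifted in the same direction by a smaller amount. Of its 659 tested genes, 420 were lower and 126 higher at 4 Gy and 30 h, and 405 were lower and 133 higher at 4 Gy and 48 h (limma), with medians of -0.52 and -0.45. Over all genes tested, 40.8% were lower and 38.3% higher at 30 h, and 39.6% and 37.1% at 48 h. The medians over all genes were -0.021 and -0.0091. In consecutive runs of 50 tested genes (59 in the last), the run from MAP3K7 to TRAF3IP2, which holds all 37 kept genes, had the lowest median, -1.02 and -0.91, with 94.0% and 92.0% of its genes lower. The other runs had medians of -0.75 to 0.24 over the 3 conditions. The block was chosen for low values, so its rank among the runs is a description.

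**Figure D3:**
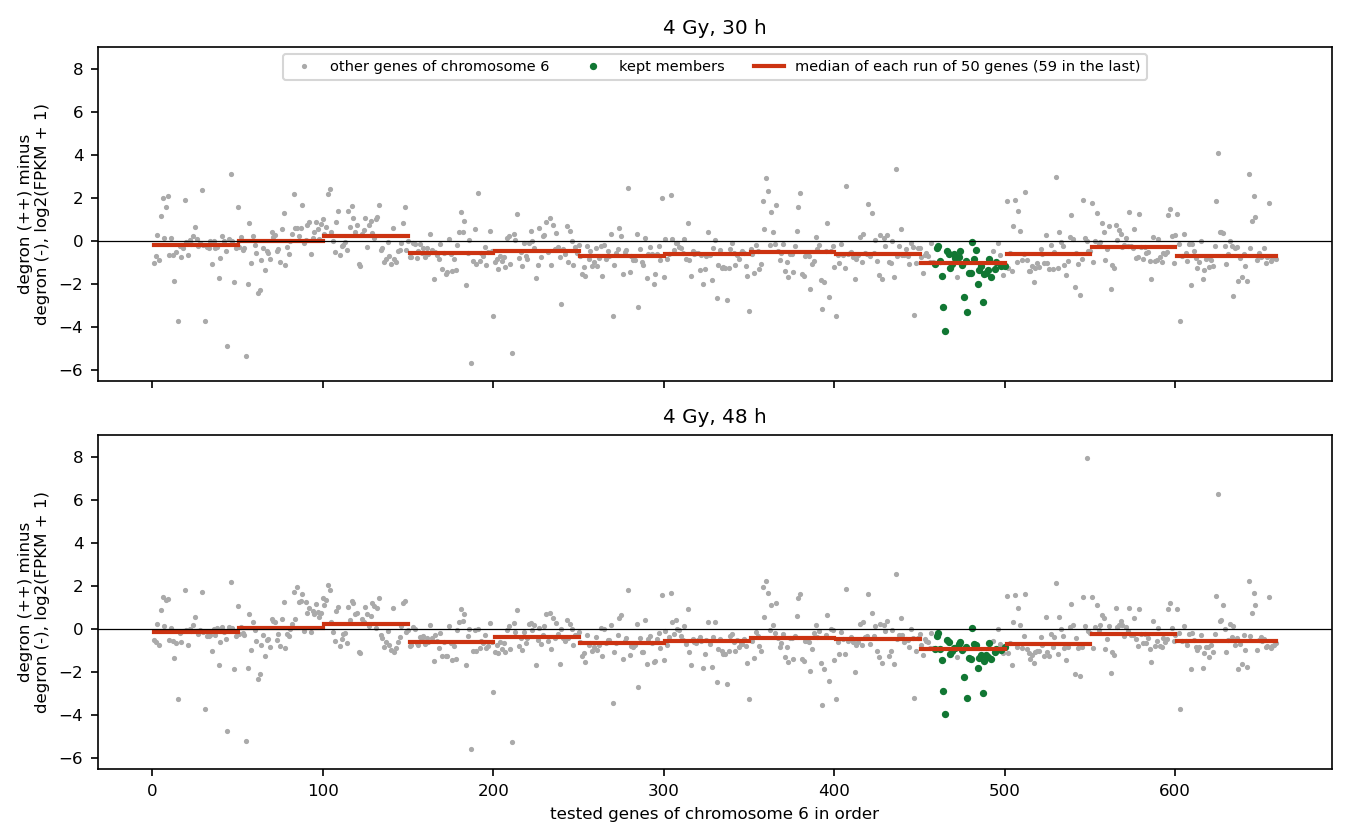
Difference in log2(FPKM + 1), degron (++) minus degron (−), of the 659 tested genes of chromosome 6 in order, at 4 Gy and 30 h (top) and 4 Gy and 48 h (bottom); green points are the kept genes of the block and red lines are medians of consecutive runs. Red lines lie below 0 in the first run, at -0.21 and -0.12, and from the 4th run on. They are lowest, at -1.02 and -0.91, over the run that holds the block.

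Other stretches with lower values were set beside it by their values alone. The 79 tested genes from ZNF829 to CYP2S1 on chromosome 19 had medians of -1.80 at 30 h and -1.69 at 48 h, and the 41 from SNN to ERI2 on chromosome 16 had -0.98 and -0.93, against -1.17 and -0.98 for the block.

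Hardly any gene of the block passed a test of dose or time. In degron (++) cells at 48 h, 0 of 37 kept genes passed the test of 4 Gy against 0 Gy (limma), with 6 at an unadjusted p under 0.05 and differences from -0.31 (MICAL1) to 0.25 (TRAF3IP2), while 1.82% of all genes passed. In degron (−) cells 0 passed (limma), with 5 at an unadjusted p under 0.05 and differences from -0.31 (SOBP) to 0.24 (MICAL1), while 4.73% of all genes passed. Between 30 h and 48 h with 4 Gy, 0 passed in degron (++) cells (limma), with 5 at an unadjusted p under 0.05, against 1.21% of all genes. LIN28B, BVES and SOBP were listed at or near 0 in all degron (++) libraries. The degron (++) tests could therefore show no fall in them, and their place among the 37 adds nothing to these counts. In degron (−) cells 1 passed, SOBP, against 7.18% of all genes, with 7 at an unadjusted p under 0.05.

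SOBP fell from 5.27 and 5.0 FPKM at 30 h to 4.08 and 3.38 FPKM at 48 h in degron (−) cells, a difference of -0.38 ± 0.0839 (limma, adjusted p = 0.0316). The 2 libraries at 48 h lay below both at 30 h. The call was lost in 13 of 20 alternatives, with adjusted p from 0.0153 to 0.193 (limma), among them the removal of any degron (++) library, of either degron (−) library at 30 h or of replicate 2 of the degron (−) libraries at 4 Gy and 48 h. In the same comparison 32 of 37 differences were negative, with a median of -0.09. Over all genes 6343 of 12946 were negative, with a median of 0.003, and on chromosome 6 421 of 659, with a median of -0.043.

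The difference between populations itself did not pass a test of change with dose or time in any of the 37 genes. For dose at 48 h, 0 genes had an interaction past the threshold (limma), 4 had an unadjusted p under 0.05, and 0.0772% of all genes passed. The interaction ranged from -0.55 (MICAL1) to 0.35 (RPF2). For time with 4 Gy, 0 genes passed (limma), 4 had an unadjusted p under 0.05, and 3.23% of all genes passed. That interaction ranged from -0.36 (SESN1) to 0.37 (SOBP), and 30 of 37 values were positive, with a median of 0.081. Over all genes 6276 of 12946 were positive, with a median of -0.0067. On chromosome 6 it was 408 of 659, with a median of 0.047. The interaction includes the degron (−) change between 30 h and 48 h, so its signs are not separate from those given above. For LIN28B, BVES and SOBP, at or near 0 in degron (++) cells, it reflects mainly their degron (−) values.

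Genes elsewhere in the genome whose products are paralogs of, or form a complex with, those of the block were listed to see how both sides of each pair compared. Of 51 listed, 49 were kept, and 21 were lower and 19 higher at 4 Gy and 30 h, 24 lower and 18 higher at 4 Gy and 48 h (limma). Their medians were -0.066 and -0.15. The partners were thus 42.9% lower and 38.8% higher at 30 h, where all genes were 40.8% and 38.3%, and 49.0% and 36.7% at 48 h, where all genes were 39.6% and 37.1%, so the counts show nothing particular to the partners.

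In the Mediator kinase module, CDK8, the paralog of CDK19, was at 14.6 to 18.3 FPKM in degron (++) and 11.2 to 12.5 FPKM in degron (−) libraries, and MED12, its activator, was at 67.1% of its degron (−) mean. The FOXO3 paralogs were higher: FOXO1 was at 10.8 to 11.3 FPKM in degron (++) and 1.60 to 2.89 FPKM in degron (−) cells, and FOXO4 at 0.829 to 1.58 and 0.176 to 0.472 FPKM. PDSS1, with which PDSS2 forms an enzyme, was at 183%. In TFIIIC, GTF3C5 was at 211% and GTF3C4 at 176% while GTF3C3 was at 55.8%, beside 44.9% for GTF3C6. RRS1, which binds RPF2, was at 129%.

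In some other pairs both sides were lower. CLCN7, the transporter that needs OSTM1, was at 47.6%. ATG7, the enzyme that activates ATG12 for conjugation to ATG5, was at 37.9%, while ATG12 was at 120% and ATG16L1 at 98.0%. ERCC1, the substrate of USP45, was at 26.9 to 34.7 FPKM in degron (++) and 69.6 to 85.2 FPKM in degron (−) libraries, and its nuclease partner ERCC4 was at 44.0%. PREPL was at 43.2% beside PREP, MICAL2 at 24.5% beside MICAL1, and WASF3 at 17.0% beside WASF1, whereas WASF2 was at 103%. Of the partners of REV3L, MAD2L2 was at 84.5%, POLD2 at 97.0% and POLD3 at 96.7%, and none of the 3 passed in either irradiated comparison (limma).

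**Figure D4:**
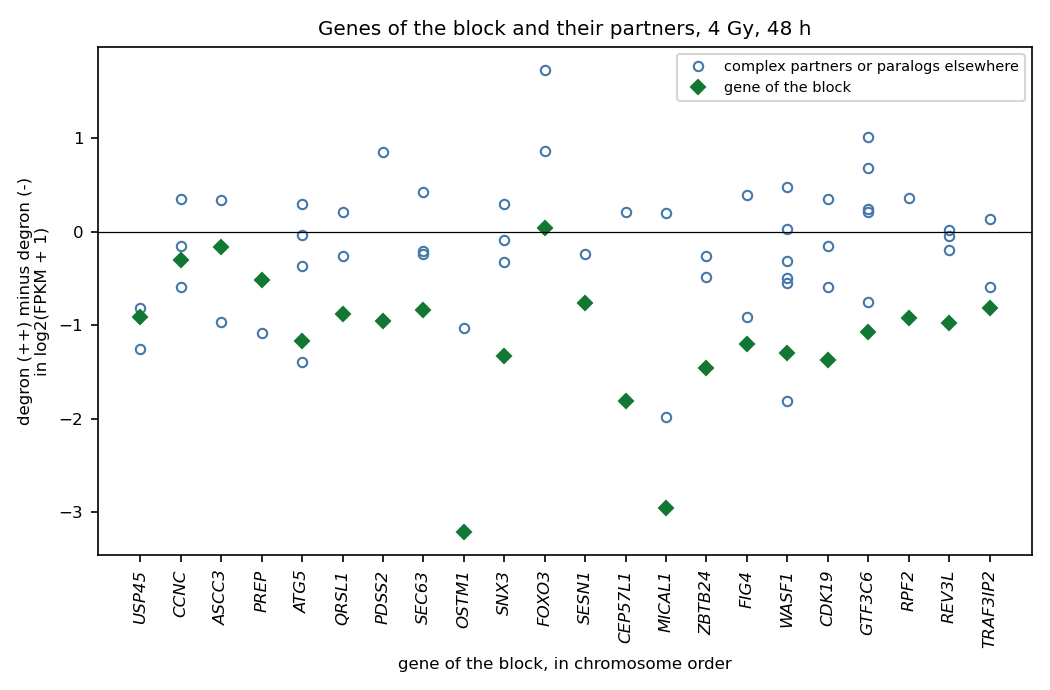
Difference in log2(FPKM + 1), degron (++) minus degron (−), at 4 Gy and 48 h for genes of the block with kept partners (green diamonds, chromosome order) and for their complex partners or paralogs elsewhere (blue circles). The circles lie on both sides of 0, from MICAL2 at -1.98 to FOXO1 at 1.73, while the diamonds lie below 0 except that of FOXO3.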

How the data were processed

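RNA from 12 libraries of PANC-1 cells was sequenced with a stranded mRNA kit. The authors deposited FPKM per gene symbol, fragments scaled to exon length and mapped reads. The submitters' processing notes name TopHat2 2.1.1, Bowtie2 2.2.8, SAMtools 0.1.18, Cuffdiff 2.2.1 and the build hg19. How strand and multiply mapped reads were counted is not given in the sources used here. Such choices affect overlapping genes and near-identical copies, and scaling to the total lets a few abundant transcripts shift all others. FPKM give no counts, so absolute depth is unknown. From the steps of low FPKM values, relative depth was 0.856 to 1.15 between libraries.

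Genes reaching 1 FPKM in 2 or more libraries were fitted on log2(FPKM + 1) with limma 3.58.1 (R 4.3.3), as 6 group means with a trended prior. P-values were adjusted over 12946 genes (Benjamini-Hochberg, threshold 0.05). The fit was tested on simulated data. No p is given for 0 Gy, where the block was found. Intervals are 95%. Gene order, strand and promoters came from RefSeq, and AIM1 was matched under its newer symbol CRYBG1. Groups follow the sample titles. The leukocyte marker list is not reported here.

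The genes and lists were chosen with earlier results of these data known. Library values are given for the 5 kept genes with the most negative and the 5 with the most positive difference at 0 Gy, for FOXO3, ATG5, REV3L, CCNC, CDK19, PRDM1, LIN28B, SESN1, HACE1 and SEC63, and for any gene past the threshold by dose, time or interaction. Alternatives were a pseudocount of 0.1, no filter or a minimum of 5 FPKM, quantile normalization, rescaling to equal sums (TPM), no trend, a replicate block, only the libraries compared, and leaving out each library.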

Additional observations from a re-analysis of the deposited data

How the results depend on the processing

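With 2 libraries a group, small differences could not be resolved. Leaving out each library in turn kept 35 to 36 genes lower in degron (++) cells in either irradiated comparison, and both counts stayed within 1.5 times under every other alternative. The median difference at 0 Gy and 48 h moved to -1.25 with a pseudocount of 0.1, -1.10 with a minimum of 5 FPKM, -0.92 after quantile normalization, -1.25 after rescaling to equal sums, and -1.07 to -0.96 without single libraries. At 4 Gy and 30 h it moved to -1.37 with the pseudocount, -1.10 with no filter, -1.06 after quantile normalization, -1.45 after rescaling, and -1.22 to -1.07 without single libraries. At 4 Gy and 48 h it moved to -1.25 with the pseudocount, -1.07 with the minimum of 5 FPKM and -1.24 after rescaling. With that minimum 27 genes were kept, and the intervals of 7 at 30 h and 8 at 48 h held the common step. In the main fit these were 11 and 13 of 37.

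The single change between 30 h and 48 h in degron (−) cells, SOBP, went to 0 with the pseudocount of 0.1, the minimum of 5 FPKM, rescaling or only the libraries compared, and ranged from 0 to 1 without single libraries. Without the trended prior 1 gene, SOBP, passed for 4 Gy against 0 Gy in degron (−) cells. The causes were not tested. FOXO3 turned to 0.12 at 30 h after quantile normalization and to -0.18 at 48 h after rescaling. Without single libraries it ranged from -0.081 to 0.01 at 30 h, turning without replicate 2 of degron (++) at 4 Gy and 30 h, and from -0.0089 to 0.09 at 48 h, turning without replicate 1 of degron (++) at 4 Gy and 48 h. Over the named genes and these alternatives 29 calls were lost and 6 gained, and no other direction turned.

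The replicate numbers did not pair the libraries, as the differences between replicates correlated by -0.0381 to 0.122 between groups. With the replicate number as a block, 36 and 35 genes were lower in the 2 irradiated comparisons, and the intervals of 11 and 15 genes held the step.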

Other observations

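A few weakly expressed genes inside the same bounds did not reach the limit for testing and are given as values. DDO, which oxidises D-aspartate and lies between WASF1 and CDK19, was higher in degron (++) cells, at 0.535 to 0.993 FPKM against 0.124 to 0.405 FPKM in degron (−) cells, without overlap of the 6 and 6 libraries. BVES-AS1, the antisense transcript of BVES, was at 0 to 0.055 FPKM in degron (++) and 0.471 to 0.995 FPKM in degron (−) libraries, the direction of BVES itself. GRIK2, a glutamate receptor subunit, was listed at 0 in the 6 degron (++) libraries and at 0.056 to 0.114 FPKM in the degron (−) libraries. SIM1, also near 0, went the other way, at 0.023 to 0.067 FPKM in degron (++) and 0 to 0.019 FPKM in degron (−) libraries. The remaining untested symbols inside the bounds overlapped between the populations over the 6 and 6 libraries, except PPIL6, which was lower in degron (++) cells as given above.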
